A study of Mus musculus with 10 samples.

Results

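The cathepsins are the proteases of the lysosome and related compartments, and 10 of their genes were followed here by gene symbol: Ctsa, Ctsb, Ctsc, Ctsd, Ctse, Ctsh, Ctsl, Ctss, Ctsw and Ctsz. They are 10 of the 29893 genes to which the transcripts of the deposited tables could be matched, and all 10 passed the filter on low counts. The study sequenced RNA of CCR2+ monocytes and of neutrophils, sorted by flow cytometry from lungs of NOD/scid mice that carried a breast tumour until end point. The groups were CCR2+ monocytes from mice with tumour HCl-002 (TN2, low metastatic; 3 libraries, tag_367, tag_706 and tag_1341), CCR2+ monocytes from mice with tumour HCl-001 (TN1, highly metastatic; 2 libraries, tag_191 and tag_482), and neutrophils from mice with TN2 (the same 3 tags) and with TN1 (the same 2 tags). No group came from mice without a tumour, and all mice shared the NOD/scid background, which lacks mature T and B cells but still has natural killer cells of reduced function. The ages, the number of mice behind a library and whether a tag is 1 animal are not given in the sources used here, so p-values measure only the spread between these samples. Smart-seq2 (full-length cDNA amplified by PCR, without molecular barcodes and without strand) was used on all 10 libraries, which held 7239218 to 11311370 estimated counts.

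Cathepsins are made as inactive precursors, carried from the Golgi to the acidic lysosome by mannose 6-phosphate and other receptors, and activated there by cleavage at low pH. Most are cysteine proteases (B, C, H, L, S, W and Z), cathepsins D and E are aspartic proteases, and cathepsin A is a serine carboxypeptidase. Cathepsin S cuts the invariant chain from MHC class II molecules in antigen-presenting cells, cathepsin C (dipeptidyl peptidase I) activates the serine proteases of neutrophil and lymphocyte granules, and stefins and cystatins inhibit the cysteine members.

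Expression is given below on 2 scales. TPM is the transcript abundance as a part of the whole library, corrected for transcript length, and is used to compare genes within a library. CPM is the estimated count relative to a library size scaled by the trimmed mean of M-values (TMM), and is used to compare libraries. A few abundant genes weigh on both scales: S100a8 alone took 5.87% to 12.3% of all TPM in neutrophils and 0.00675% to 0.380% in monocytes. A gene is called where the edgeR quasi-likelihood test gave a Benjamini-Hochberg adjusted p under 0.05 over the 13384 genes tested. In sorted bulk samples, fewer expressing cells and less RNA per cell cannot be told apart.

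The sorts carried the markers of their labels, with exceptions in 3 tags that touch the results below. The 13 neutrophil markers summed to 1422 to 10050 TPM in monocytes and 153204 to 222078 TPM in neutrophils, and Ccr2 was at 128 to 339.6 TPM in monocytes and 0.905 to 18.4 TPM in neutrophils. TN2 monocytes tag_706 had the highest neutrophil marker sum of the monocytes (10050 TPM, against 1422 to 5092 TPM in the other 4), the highest natural killer and T cell sum (764 TPM, against 44.1 to 270 TPM) and the highest sum of epithelial, endothelial and stromal markers (1573 TPM, against 12.3 to 212 TPM). Its interstitial macrophage sum was also the highest (2418 TPM, against 409.7 to 899.6 TPM). The alveolar macrophage sum was not the highest there, at 6299 TPM against 11238 TPM in TN2 monocytes tag_1341. Most of both sums was Chil3, also a listed monocyte marker, at 5256 and 11047 TPM. The other listed alveolar genes were highest in tag_706 among the monocytes. Marco was at 16.8 TPM against at most 0.249 TPM in the other monocytes, and Fabp4 at 182 TPM against at most 6.88 TPM. TN2 neutrophils tag_1341 had the highest monocyte marker sum of the neutrophils (1793 TPM, against 325 to 1389 TPM in the other 4), with Ccr2 at 18.4 TPM and Ly6c2 at 226 TPM. The tag_482 libraries had the fewest genes with at least 5 counts in their cell type (9732 in monocytes and 8851 in neutrophils) and the highest percentage of TPM from mitochondrial protein genes (19.9% and 3.002%). TN1 monocytes tag_482 also had the highest dendritic cell marker sum of the monocytes (1086 TPM, against 176 to 348 TPM in the other 4).

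Cathepsin S led in monocytes and cathepsin D in neutrophils. By TPM, Ctss was first among the 10 genes in all 5 monocyte libraries, at 2315 to 4521 TPM, and made up 33.5% to 44.2% of the summed cathepsin TPM there, against 13.99% to 30.9% in neutrophils. Ctsd was first in 4 of 5 neutrophil libraries, at 863 to 1597 TPM over the 5, with 30.8% to 53.9% of the sum there, against 3.80% to 18.5% in monocytes. The exception was TN2 neutrophils tag_1341, where Ctss and Ctsd stood at 864 and 863 TPM. The ratio of Ctss to Ctsd TPM was 1.81 to 11.6 in monocytes and 0.259 to 1.001 in neutrophils. These genes were picked as the leaders in the same libraries, so the ratio restates their order and is no separate result. The lowest monocyte ratio was that of tag_706 and the highest neutrophil ratio that of tag_1341.

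The full orders of mean TPM were as follows, with SD over 5 libraries. In monocytes, Ctss (3423 ± 874 TPM) was followed by Ctsz (1356 ± 253 TPM), Ctsc (939 ± 353 TPM), Ctsa (671 ± 105 TPM), Ctsh (668 ± 152 TPM), Ctsd (649 ± 365 TPM), Ctsb (590.1 ± 102 TPM), Ctsl (254 ± 108 TPM), Ctsw (18.8 ± 19.97 TPM) and Ctse (5.86 ± 2.97 TPM). Ctsa, Ctsh, Ctsd and Ctsb lay within 1 SD of one another. In neutrophils, Ctsd (1216 ± 283 TPM) was followed by Ctss (582 ± 184 TPM), Ctsa (328 ± 49.8 TPM), Ctsb (200.5 ± 28.7 TPM), Ctsz (179 ± 52.7 TPM), Ctsh (102 ± 35.0 TPM), Ctsc (62.9 ± 56.1 TPM), Ctsl (60.4 ± 13.3 TPM), Ctse (20.4 ± 8.82 TPM) and Ctsw (0.661 ± 1.21 TPM). Here Ctsb and Ctsz, and Ctsc and Ctsl, lay within 1 SD of each other. Ctsh lay within the SD of Ctsc but not within its own, and was further from Ctsl than either SD. Together the 10 genes held 6915 to 10764 TPM in monocytes, 0.691% to 1.08% of all TPM, and 2514 to 2962 TPM in neutrophils, 0.251% to 0.296%.

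**Figure D1:**
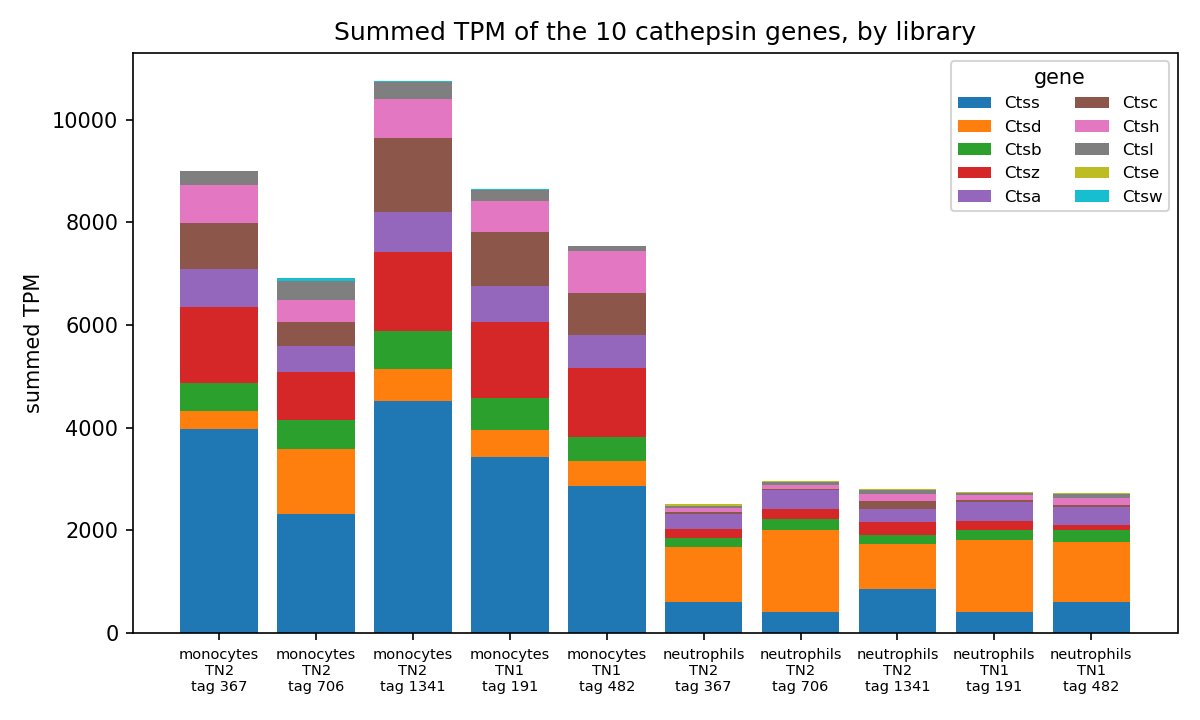
Stacked bars give the summed TPM of the 10 cathepsin genes in each library, monocytes on the left and neutrophils on the right, with TN2 before TN1 in each; each colour is a gene. Ctss is the largest block in all 5 monocyte libraries (2315 to 4521 TPM) and Ctsd the largest in 4 of 5 neutrophil libraries.

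Across the cell types, 6 of the 10 cathepsins were called higher and 2 called lower in monocytes than in neutrophils, where 27.9% of all genes were called (15.5% higher and 12.4% lower). The 6 were Ctsb, Ctsc, Ctsh, Ctsl, Ctss and Ctsz, all cysteine proteases, and the 2 were the aspartic proteases Ctsd and Ctse. Ctsa and Ctsw were not called. The median log2 fold of the 10 was 1.43, against 0.46 over all genes tested. The split of all calls depended on the scaling, with 2070 higher and 1663 lower here, 4532 and 1198 with limma on log2(TPM + 1), and 3910 and 886 with library totals in place of TMM. These alternatives had all-gene medians of 0.62 and 1.30, and with library totals 8 cathepsins were called higher and 1 lower. Without tag_706 of the TN2 monocytes and tag_1341 of the TN2 neutrophils together, a setting chosen after seeing the data, the counts of cathepsins were 6 and 2.

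**Figure D2:**
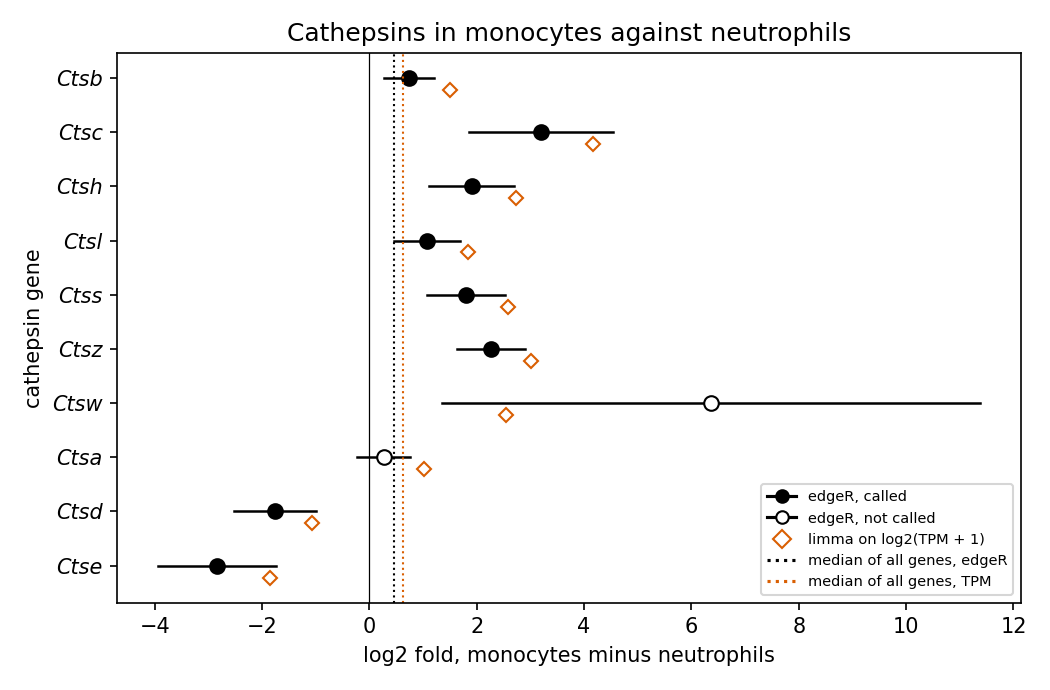
Points give each gene's log2 fold, monocytes minus neutrophils, from edgeR with its 95% interval as a bar (filled where called, open where not), and diamonds the log2 fold from limma on log2(TPM + 1); dotted lines mark the median of all genes on each scale. The 6 called cysteine cathepsins lie right of 0, Ctsd and Ctse lie left of it, and every TPM fold except that of Ctsw lies to the right of its edgeR fold.

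Promoter sequence was looked up for the 10 genes in RefSeq windows of GRCm38.p6 (250 bases before to 50 after the annotated start), and 6 genes matched: Ctsa with 2 starts, Ctsc, Ctsd, Ctsl, Ctss and Ctsz. Ctsb, Ctse, Ctsh and Ctsw had no entry. Searched on both strands were CACGTG, the E-box core; TCACGTG, the core of the site bound by the lysosomal regulator TFEB, which contains the E-box; GAGGAAG, a core of the myeloid factor PU.1; and GAAANNGAA, a core of the interferon-stimulated response element. Of 32851 promoter windows, 7.15% hold the first, 3.77% the second, 13.6% the third and 8.56% the fourth. The 4 windows below are shown because they belong to the leading monocyte gene, the gene with the largest called fold among the higher ones, the leading neutrophil gene and Ctsa, one of the cathepsins without a call; capitals mark the matched letters.
Ctss, chr3:95526536-95526835, plus strand: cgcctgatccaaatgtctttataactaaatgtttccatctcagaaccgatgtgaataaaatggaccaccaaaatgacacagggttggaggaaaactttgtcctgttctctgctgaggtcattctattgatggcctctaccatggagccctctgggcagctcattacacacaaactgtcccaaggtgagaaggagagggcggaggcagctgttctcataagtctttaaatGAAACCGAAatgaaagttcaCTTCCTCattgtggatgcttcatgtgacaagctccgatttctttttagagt
Ctsc, chr7:88277835-88278134, plus strand: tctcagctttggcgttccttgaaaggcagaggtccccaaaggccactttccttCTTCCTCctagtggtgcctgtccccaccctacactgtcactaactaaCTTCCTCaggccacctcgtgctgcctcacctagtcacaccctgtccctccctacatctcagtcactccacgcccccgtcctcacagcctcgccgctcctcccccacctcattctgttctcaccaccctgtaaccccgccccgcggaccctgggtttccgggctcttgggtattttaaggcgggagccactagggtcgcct
Ctsd, chr7:142387778-142388077, minus strand: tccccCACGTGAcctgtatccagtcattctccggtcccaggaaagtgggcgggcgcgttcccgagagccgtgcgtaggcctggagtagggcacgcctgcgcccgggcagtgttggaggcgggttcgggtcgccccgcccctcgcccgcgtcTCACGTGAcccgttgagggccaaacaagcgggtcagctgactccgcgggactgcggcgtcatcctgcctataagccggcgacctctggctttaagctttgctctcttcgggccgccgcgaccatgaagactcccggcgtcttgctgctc
Ctsa, chr2:164833523-164833822, plus strand: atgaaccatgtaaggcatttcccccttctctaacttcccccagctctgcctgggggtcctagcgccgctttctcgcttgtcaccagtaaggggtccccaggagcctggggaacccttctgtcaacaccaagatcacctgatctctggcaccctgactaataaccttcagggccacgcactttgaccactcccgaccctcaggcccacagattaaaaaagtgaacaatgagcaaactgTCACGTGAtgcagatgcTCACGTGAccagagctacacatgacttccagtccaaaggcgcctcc
In the Ctss window the response-element core began 21 bases before the start and a PU.1 core, read on the other strand, 1 base before it. The Ctsc window held the PU.1 core at 2 places, 197 and 150 bases before the start. Ctsd held TCACGTG at 2 places, beginning 245 and 99 bases before the start, and this Ctsa window held it at 2 places, beginning 13 bases before and 4 bases after the start. Ctsl held 1 E-box, 236 bases before its start, and the Ctsz window and the other Ctsa window held none of the 4. A match is only a run of letters, and binding was not measured.

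Among the endopeptidases of the cysteine class, cathepsin S was the most abundant. Ctss (chromosome 3, 95526786 to 95556403, plus strand) had 2983, 1508 and 3303 CPM in TN2 monocytes and 2871 and 2818 CPM in TN1 monocytes, against 702, 597 and 1379.6 CPM in TN2 neutrophils and 549 and 816 CPM in TN1 neutrophils. The monocyte libraries were all above the neutrophil libraries, with tag_706 the lowest monocyte and tag_1341 the highest neutrophil value (log2 fold 1.80 ± 0.33 SE, adjusted p = 0.00301 by edgeR). In mean CPM this was 2697 ± 691 in monocytes and 809 ± 335 in neutrophils (SD, n = 5 each). Of its 2 annotated transcripts of equal length, Ctss-202 carried 88.5% to 91.4% of the gene's TPM in monocytes and 84.1% to 94.1% in neutrophils.

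Ctsl (chromosome 13, 64359337 to 64370890, minus strand), for the endopeptidase cathepsin L, had 310.4, 372 and 373 CPM in TN2 monocytes and 256 and 153 CPM in TN1 monocytes, against 90.2, 126 and 184 CPM in TN2 neutrophils and 93.5 and 151 CPM in TN1 neutrophils. It was called higher in monocytes (log2 fold 1.07 ± 0.27 SE, adjusted p = 0.0164 by edgeR), but the ranges overlapped: TN1 monocytes tag_482, at 153 CPM, lay under TN2 neutrophils tag_1341, at 184 CPM. The call was lost without TN1 monocytes tag_191 (log2 fold 0.82, adjusted p = 0.0827 by edgeR) and without TN1 neutrophils tag_191 (0.92, adjusted p = 0.0613).

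Ctsb (chromosome 14, 63122462 to 63145923, plus strand) encodes cathepsin B, which can trim carboxyl ends as well as cut within chains. It had 1643, 1466 and 2152 CPM in TN2 monocytes and 2058 and 1809.9 CPM in TN1 monocytes, against 785, 1158 and 1128 CPM in TN2 neutrophils and 1099 and 1269 CPM in TN1 neutrophils. The ranges did not meet, but the difference was the smallest among the called cathepsins (log2 fold 0.74 ± 0.21 SE, adjusted p = 0.0244 by edgeR). The call was lost without TN2 monocytes tag_367 or tag_1341 (adjusted p = 0.0806 and 0.0942 by edgeR), TN1 monocytes tag_191 or tag_482 (0.121 and 0.0857), TN1 neutrophils tag_191 or tag_482 (0.0829 and 0.0603), or both tag_482 libraries (0.158).

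The exopeptidases of the class were all called higher in monocytes. Ctsz (chromosome 2, 174427493 to 174439039, minus strand), for the carboxypeptidase cathepsin Z, had 1203, 647 and 1209 CPM in TN2 monocytes and 1335 and 1416 CPM in TN1 monocytes, against 220.3, 305 and 435 CPM in TN2 neutrophils and 227 and 156 CPM in TN1 neutrophils. The cell types did not overlap, and Ctsz had the smallest p of the 10 genes (log2 fold 2.26 ± 0.28 SE, adjusted p = 0.000446 by edgeR).

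Ctsc (chromosome 7, 88278085 to 88310888, plus strand) had 1363, 622 and 2125 CPM in TN2 monocytes and 1776 and 1625 CPM in TN1 monocytes, against 75.3, 101 and 516 CPM in TN2 neutrophils and 139 and 102 CPM in TN1 neutrophils. This was the largest difference among the called higher genes (log2 fold 3.20 ± 0.60 SE, adjusted p = 0.00357 by edgeR), although TN2 neutrophils tag_1341 came near TN2 monocytes tag_706. Without TN2 neutrophils tag_1341 the log2 fold was 3.89 (adjusted p = 0.000393 by edgeR), and without both tag_482 libraries the call was lost (3.06, adjusted p = 0.0519).

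Ctsh (chromosome 9, 90054152 to 90076089, plus strand), for the aminopeptidase cathepsin H, had 596, 289.5 and 575 CPM in TN2 monocytes and 548 and 858 CPM in TN1 monocytes, against 99.5, 111 and 234 CPM in TN2 neutrophils and 116 and 211 CPM in TN1 neutrophils. All monocyte values were above all neutrophil values (log2 fold 1.91 ± 0.35 SE, adjusted p = 0.00343 by edgeR). The gene's TPM was divided between the protein-coding Ctsh-201, with 52.0% to 54.6% in monocytes and 53.3% to 62.6% in neutrophils, and Ctsh-202, annotated as a target of nonsense-mediated decay, with 42.8% to 46.0% in monocytes and 32.6% to 46.0% in neutrophils. These transcript shares rest on the authors' assignment of shared reads and were not tested.

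Cathepsin W is the family member known from natural killer and cytotoxic T cells. Ctsw (chromosome 19, 5465043 to 5468507, minus strand) had 0.583, 28.0 and 16.9 CPM in TN2 monocytes and 14.2 and 0 CPM in TN1 monocytes, against 2.91, 0.671 and 0 CPM in TN2 neutrophils and 0 CPM in both TN1 neutrophil libraries. A pair of monocyte libraries thus had as little as the neutrophils, and the difference was not called (log2 fold 6.36 ± 2.21 SE, adjusted p = 0.0608 by edgeR). That fitted fold depends on a group at 0 counts; the ratio of pooled counts was 4.09 on the log2 scale. The call appeared with DESeq2 (adjusted p = 0.00384), with library totals (adjusted p = 0.0404 by edgeR), without a filter (0.0298) and without TN1 monocytes tag_482 (0.0342), and without TN1 monocytes tag_191 the log2 fold was 1.75.

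Ctsw was highest in the libraries with the most natural killer and T cell marker RNA. The 10 markers summed to 44.1, 764 and 270 TPM in TN2 monocytes and 268 and 137 TPM in TN1 monocytes, where Ctsw was at 0.872, 48.3 and 26.0 TPM and at 19.0 and 0 TPM. In neutrophils the sum was 55.4, 4.32 and 0.265 TPM with TN2 and 47.0 and 1.42 TPM with TN1, and Ctsw was at 2.78, 0.522 and 0 TPM and at 0 TPM in both. Gzma, the granzyme A gene, was at 360 TPM and Ncr1, the natural killer receptor gene, at 33.8 TPM in TN2 monocytes tag_706, the library with the most Ctsw, while Cd3e, a T cell receptor subunit, was at 0 TPM in all 10 libraries. The listed Klrk1 went the other way, at 56.2 TPM in tag_706 and 104 TPM in TN1 monocytes tag_482. It made up most of the sum in tag_482, where Gzmb and Prf1 were at 0 TPM, and in TN2 monocytes tag_367 (41.8 TPM). The part of such cells in the Ctsw values was not tested.

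**Figure D3:**
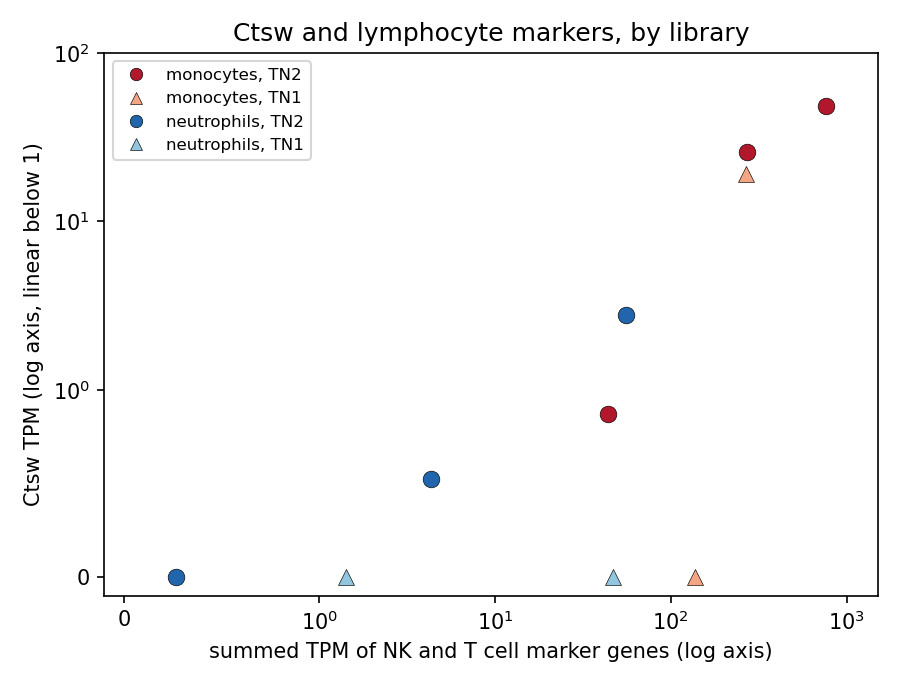
Each point is a library, with the summed TPM of 10 natural killer and T cell markers on the x axis and Ctsw TPM on the y axis (log axes, linear below 1). The 3 libraries with marker sums of 268 to 764 TPM hold 19.0 to 48.3 TPM of Ctsw. TN1 monocytes tag_482 has a sum of 137 TPM, of which Klrk1 is 104 TPM, and no Ctsw.

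The aspartic proteases ran the other way. Ctsd (chromosome 7, 142375911 to 142388038, minus strand) had 425, 1385 and 751 CPM in TN2 monocytes and 705 and 811 CPM in TN1 monocytes, against 2072, 3833 and 2262 CPM in TN2 neutrophils and 2952 and 2535 CPM in TN1 neutrophils. It was lower in monocytes without overlap in CPM (log2 fold -1.76 ± 0.34 SE, adjusted p = 0.00428 by edgeR). By TPM the ranges met, because TN2 monocytes tag_706 held 1277 TPM and the neutrophils 863 to 1597 TPM, and with library totals in place of TMM the call was lost (log2 fold -0.91, adjusted p = 0.0565 by edgeR). Ctsd was highest with tag_706 in both cell types. In monocytes this library also had the highest sums of neutrophil, interstitial macrophage, natural killer and T cell, and epithelial, endothelial and stromal markers. The part of any of these cells in the Ctsd value was not tested.

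Ctse (chromosome 1, 131638306 to 131675505, plus strand), for the non-lysosomal cathepsin E of the endosome, was scarce. It had 10.1, 9.39 and 7.68 CPM in TN2 monocytes and 7.20 and 1.81 CPM in TN1 monocytes, against 62.2, 40.1 and 24.6 CPM in TN2 neutrophils and 39.2 and 59.3 CPM in TN1 neutrophils. No monocyte library reached the lowest neutrophil library (log2 fold -2.83 ± 0.49 SE, adjusted p = 0.00238 by edgeR). Its estimated counts were 15 to 138 per monocyte library and 161 to 491 per neutrophil library, and without TN1 monocytes tag_191 the log2 fold was -3.54 (adjusted p = 0.00298 by edgeR).

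Ctsa (chromosome 2, 164832873 to 164841032, plus strand) had 1008, 608 and 1031 CPM in TN2 monocytes and 1001 and 1093 CPM in TN1 monocytes, against 648, 986 and 695 CPM in TN2 neutrophils and 866 and 783 CPM in TN1 neutrophils. Cathepsin A also protects β-galactosidase and neuraminidase 1 in a lysosomal complex. The ranges overlapped through tag_706, low in monocytes and high in neutrophils, and the gene was not called (log2 fold 0.26, 95% interval -0.23 to 0.76, adjusted p = 0.401 by edgeR). The scale decides this result: on log2(TPM + 1) the log2 fold was 1.01 (adjusted p = 0.00157 by limma) and with library totals 1.09 (adjusted p = 0.00227 by edgeR).

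**Figure D4:**
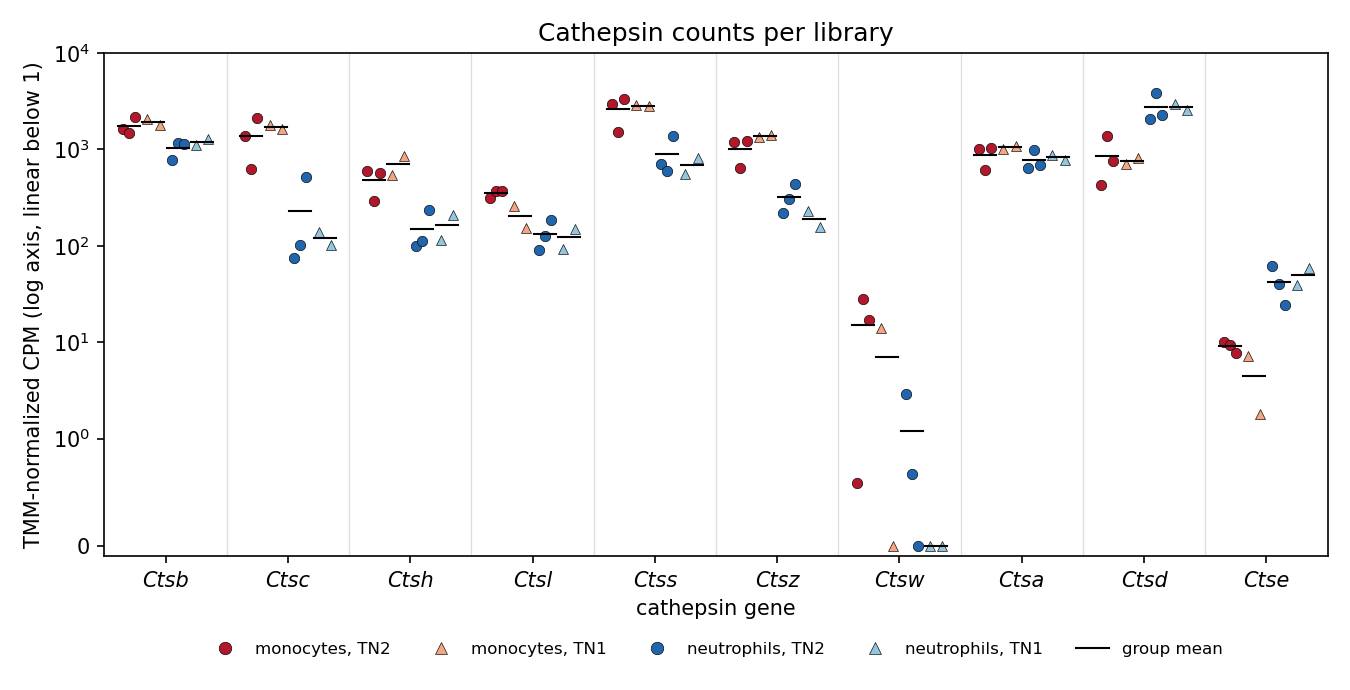
CPM of the 10 cathepsins in each library on a log axis (linear below 1), with monocytes left of neutrophils and TN2 left of TN1 for each gene; short lines are group means. Ctsb, Ctsc, Ctsh, Ctss and Ctsz have every monocyte library above every neutrophil library, and Ctsd and Ctse every one below.

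In CPM, 5 of the 10 cathepsins were higher without overlap (Ctsb, Ctsc, Ctsh, Ctss and Ctsz) and 2 lower (Ctsd and Ctse), against a background of 28.5% of all genes without overlap (16% higher and 12.6% lower). In TPM, Ctsa and Ctsl were also higher without overlap and Ctsd was not separated, against 31.3% of all genes (25.2% higher and 6.17% lower). Patterns over the 10 libraries were compared by the root mean square difference of log2(TPM + 1), each gene centred on its mean. The closest pairs of members were Ctsh and Ctss (0.29), Ctsa and Ctsb (0.32) and Ctss and Ctsz (0.40). Among all genes tested, nearest to Ctss were Rpn1 (0.13), Emp3 (0.21) and Ddx54 (0.23). Nearest to Ctsz were Commd4 (0.24), Psma4 (0.24) and Shtn1 (0.25), and nearest to Ctsd were Ppp1r2 (0.23), 4933431K23Rik (0.26) and Gng12 (0.26).

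Between the tumours, no cathepsin was called in monocytes, in neutrophils or for the difference of the tumour effects, and neither was any other gene (0% called in each of the 3 comparisons). At an unadjusted p under 0.05 there were 379, 625 and 472 genes and no cathepsin, and DESeq2 called 17 higher and 5 lower in monocytes, 78 and 9 in neutrophils, and 4 and 17 for the difference. The median log2 fold of the 10 cathepsins, TN2 minus TN1, was -0.14 in monocytes and 0.06 in neutrophils, against 0.22 over all genes in both. In monocytes, 3 of 10 did not overlap between the tumours in CPM: Ctse and Ctsl were higher and Ctsz lower with TN2, where 20.1% of all genes did not overlap (12.4% higher and 7.73% lower). In neutrophils, none of the 10 separated in CPM, where 17.7% of all genes did (11.8% higher and 5.91% lower). In TPM the overlaps differed: in monocytes Ctse and Ctsl were higher without overlap and Ctsz was not separated, against 24.4% of all genes (21.7% higher and 2.67% lower). In neutrophils Ctsz was higher and Ctsb lower with TN2 without overlap in TPM, against 17.1% (10.2% higher and 6.87% lower).

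Ctsl was nearest to a difference in monocytes. At 310.4, 372 and 373 CPM with TN2 and 256 and 153 CPM with TN1, its log2 fold was 0.79, with a 95% interval of -0.09 to 1.66 (unadjusted p = 0.0721, adjusted p = 1 by edgeR). The authors' deposited table gives Ctsl a log2 fold of 1.17 with p = 0.0317 and adjusted p = 1. The lowest value, 153 CPM, was that of tag_482. Ctse, at 10.1, 9.39 and 7.68 CPM with TN2 and 7.20 and 1.81 CPM with TN1, had a log2 fold of 1.003 with an interval of -0.49 to 2.50. Ctsz differed by -0.43 (-1.28 to 0.41).

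In neutrophils the largest shift among the abundant cathepsins apart from Ctsc was that of Ctsz, with 220.3, 305 and 435 CPM with TN2 and 227 and 156 CPM with TN1 (log2 fold 0.74, 95% interval -0.13 to 1.61, unadjusted p = 0.0869, adjusted p = 0.943 by edgeR). Only tag_367 of TN2 fell below a TN1 library. Ctsc had a log2 fold of 0.94 with an interval of -0.82 to 2.71. Its highest value, 516 CPM, came from tag_1341, and without that library the log2 fold was -0.45. Ctsw had 23, 5 and 0 estimated counts in the TN2 neutrophil libraries and 0 counts in both TN1 ones, so its level with TN2 rests on tag_367, and no fold is given.

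For the other members the intervals were wide and included 0. Ctsh had a log2 fold of -0.53 (-1.60 to 0.53) in monocytes and -0.14 (-1.21 to 0.93) in neutrophils. Ctsa had one of -0.25 (-0.95 to 0.45) in monocytes and -0.09 (-0.79 to 0.62) in neutrophils. Neither was called. Ctss had a log2 fold of -0.13 (-1.12 to 0.86) in monocytes and 0.39 (-0.62 to 1.39) in neutrophils, and Ctsd one of 0.17 (-0.88 to 1.22) and -0.01 (-1.05 to 1.03). The narrowest intervals were those of Ctsb, -0.79 to 0.51 in monocytes and -0.86 to 0.44 in neutrophils. Of the differences between the tumour effects, that of Ctsz was the largest relative to its error (-1.17 ± 0.54 SE, unadjusted p = 0.0558, adjusted p = 0.9999 by edgeR).

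**Figure D5:**
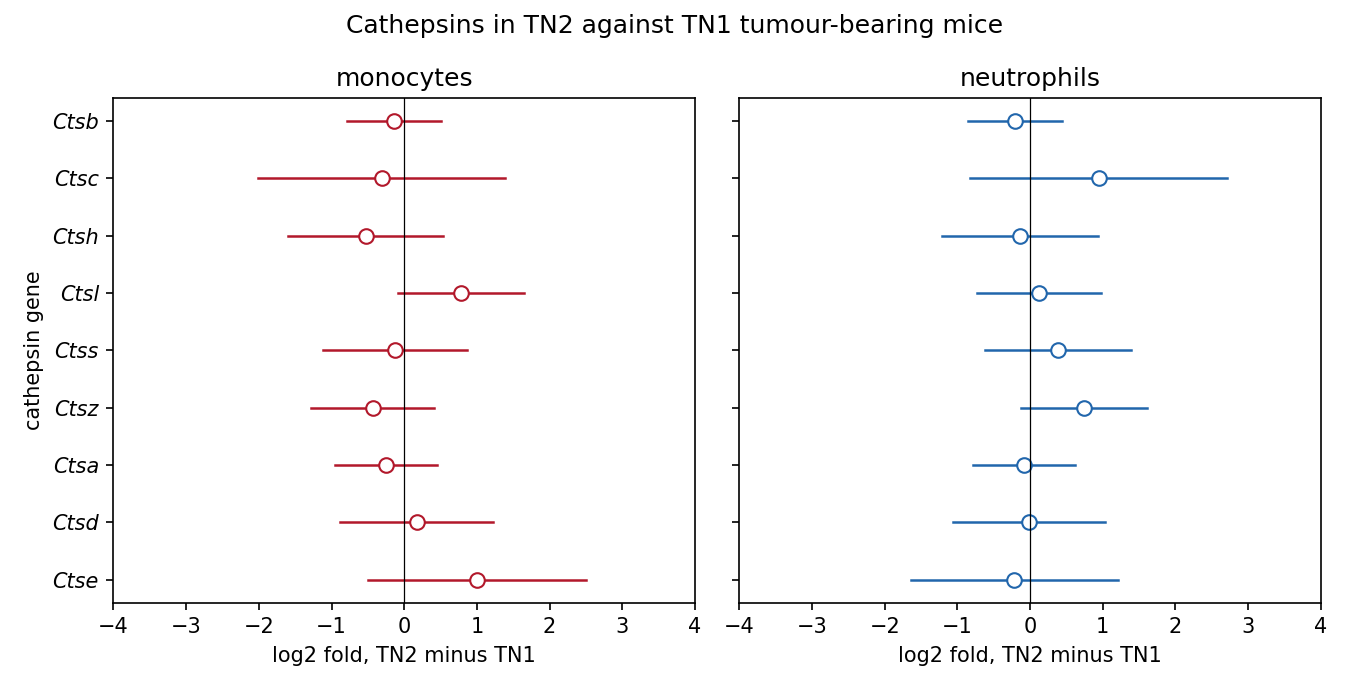
Open circles give the log2 fold, TN2 minus TN1, of 9 cathepsins in monocytes (left) and neutrophils (right), with 95% intervals from edgeR; Ctsw is left out because its counts were 0 in a group. Every interval includes 0, and those of Ctsl in monocytes and Ctsz in neutrophils reach 0 only near their lower ends.

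Of 13 other cathepsin genes listed, 3 passed the filter and only Ctso was called (21.3 ± 10.3 TPM in monocytes and 3.41 ± 1.97 TPM in neutrophils, log2 fold 1.78 ± 0.52 SE, adjusted p = 0.0289 by edgeR). Ctsf was at 0 to 21.95 TPM in monocytes and 0 to 1.45 TPM in neutrophils, and Ctsg, for the azurophil granule protease cathepsin G, at 0 to 7.75 TPM in monocytes and 0 to 0.283 TPM in neutrophils. The call of 1 gene in 3 is near the 27.9% called over all genes. Ctsg had 3 counts or fewer in each neutrophil group and so passed the filter through monocytes alone. The list's median, 2.48 against 0.46 over all genes, is over 3 genes and depends on that filter, so it is not read as a result. The gene of the osteoclast enzyme cathepsin K, Ctsk, did not pass the filter and reached 10.04 TPM in TN2 monocytes tag_706 and at most 0.232 TPM elsewhere; it is named after its values were seen.

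Of 18 inhibitor genes listed, 13 were tested, 1 was called higher and 6 lower in monocytes, against 15.5% and 12.4% over all genes, with a median of -0.38. Of the 13, 4 had a group at 3 counts or fewer: Stfa2, Stfa2l1 and Stfa3 in TN1 monocytes, and BC117090 in both monocyte groups. BC117090 so passed the filter through neutrophils alone. The count of lower genes depends on that filter and is not read as a result. The 6 lower ones are stefin A genes that neutrophils express: Stfa2l1 averaged 27.4 ± 57.8 TPM in monocytes and 2271 ± 985 TPM in neutrophils, Gm5483 22.1 ± 41.9 and 1471 ± 837 TPM, BC100530 7.91 ± 13.6 and 593 ± 324 TPM, and Stfa2 5.50 ± 11.05 and 407 ± 264 TPM (adjusted p = 0.00129, 0.000840, 0.000521 and 0.000934 by edgeR). The stefin A genes are near-identical copies, so their single values are uncertain and the 6 calls are not separate results. The 1 higher gene, named after its values were seen, was Cst3, for the secreted cystatin C (5502 ± 449 TPM in monocytes and 1616 ± 121 TPM in neutrophils, log2 fold 1.03 ± 0.19 SE, adjusted p = 0.00375 by edgeR). Cstb, for stefin B, was at 905 ± 149 TPM in monocytes and 685 ± 240 TPM in neutrophils, and Ctla2a at 53.0 ± 103 TPM and 18.9 ± 11.9 TPM; neither was called.

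A list of 14 genes covered lysosomal sorting and activation, among them the transcription factors Tfeb, Tfe3 and Mitf. Of the 14, 5 were called higher and 3 lower in monocytes, against 15.5% and 12.4% over all genes, with a median of 1.07. Higher in monocytes were M6pr, the cation-dependent mannose 6-phosphate receptor (log2 fold 1.85 ± 0.22 SE), Nagpa, which uncovers the mannose 6-phosphate tag (2.45 ± 0.37), and Lgmn, the asparaginyl protease legumain that cuts cathepsin precursors (2.28 ± 0.29; 666 ± 122 TPM in monocytes and 81.1 ± 18.1 TPM in neutrophils). Sorl1, a sorting receptor, was lower (-2.64 ± 0.24), with adjusted p of 0.000104 to 0.00114 for these 4 by edgeR. Psap and Grn were the others called higher, and Tfeb (-2.04 ± 0.54, adjusted p = 0.0190 by edgeR) and Tfe3 (-1.25 ± 0.27, adjusted p = 0.00728), transcription factors of lysosomal genes, the others called lower, all 4 named after their values were seen. Scarb2 and Gnptg were not called, at -0.24 ± 0.21 and 0.63 ± 0.53.

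Of 19 genes of the proton pump that acidifies lysosomes and its chloride exchanger, 3 were called higher, near the all-gene share of 15.5%, and 5 lower, against 12.4%, with a median of -0.54. The lower ones included Atp6v1g1 (-1.53 ± 0.22 SE), Atp6v0a1 (-1.54 ± 0.28) and Atp6v0d1 (-1.16 ± 0.23), and the higher ones Tcirg1, the a3 subunit of that pump (1.43 ± 0.27; adjusted p = 0.000840, 0.00296, 0.00531 and 0.00405 by edgeR). Named after their values were seen, Atp6v0e and Atp6v1b2 were the other lower genes, and Atp6v1c1 and Clcn7 the other higher ones. Atp6v0b and Atp6v1f were not called, at 0.07 ± 0.20 and -0.06 ± 0.21.

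Of 30 other lysosomal hydrolases, 15 were called higher and 3 lower in monocytes, against 15.5% and 12.4% over all genes, with a median of 1.24. Acp5, tartrate-resistant acid phosphatase, was higher (2.85 ± 0.28 SE, adjusted p = 0.000139 by edgeR), as was legumain. The 3 lower genes were Gla, α-galactosidase A (-2.21 ± 0.29), Man2b1, α-mannosidase (-1.49 ± 0.21), and Neu1, the partner of cathepsin A (-1.57 ± 0.24, named after its value was seen), with adjusted p = 0.000545, 0.000840 and 0.00113 by edgeR. Napsa and Fuca1 were not called, at 0.35 ± 0.31 and -0.64 ± 0.21. Of 11 lysosomal membrane genes tested, 4 were called higher and 3 lower, against 15.5% and 12.4% over all genes, with a median of 0.19: Lamp1 was higher (2.45 ± 0.25) and Lamp2 lower (-1.45 ± 0.25), with adjusted p = 0.000159 and 0.00233 by edgeR. Tmem192 was higher (2.89 ± 0.78, adjusted p = 0.0205 by edgeR) and the metal transporter gene Slc11a1 lower (-1.78 ± 0.38, adjusted p = 0.00670). Named after their values were seen, Cd68 and Laptm4a were the other higher genes and Cd63 the other lower one. Laptm5 and Cln3 were not called, at -0.21 ± 0.23 and -0.62 ± 0.30.

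Cathepsin S acts on the class II pathway. Of 10 genes of MHC class II chains, their loading factors and the invariant chain, 9 were called higher in monocytes and none lower, against 15.5% higher and 12.4% lower over all genes, with a median of 5.88. The 9 include H2-Oa, which had 3 counts or fewer in each neutrophil group and so passed the filter through monocytes alone. Its call is not read as a result, and with H2-Oa at its pooled ratio the median was 5.72. Cd74, the invariant chain gene, had 10475, 5792 and 4852 TPM in TN2 monocytes and 12621 and 19226 TPM in TN1 monocytes, against 280.0, 180.1 and 199 TPM in TN2 neutrophils and 111 and 113 TPM in TN1 neutrophils (log2 fold 5.38 ± 0.36 SE, adjusted p = 4.61e-05 by edgeR). H2-Ab1 (6.53 ± 0.48), H2-DMb2 (6.39 ± 0.54) and H2-Aa (5.28 ± 0.45) were also higher, and H2-Ob (3.54 ± 1.29, adjusted p = 0.0667 by edgeR) was not called. TN1 monocytes tag_482, the library with the highest Cd74 value, also had the highest dendritic cell marker sum. The part of such cells in the class II values was not tested. Of 7 granule serine proteases tested that cathepsin C matures, 2 were called, a share near the 27.9% over all genes: 1 was higher, Prtn3 (50.8 ± 37.7 TPM in monocytes and 3.79 ± 3.26 TPM in neutrophils, adjusted p = 0.0271 by edgeR), and 1 lower, Prss57 (0.606 ± 1.08 TPM and 9.54 ± 3.46 TPM, adjusted p = 0.00912). The list's median was 3.08, or 2.63 with 4 genes that had a group at 3 counts or fewer set to their pooled ratios. Prss57 is among these 4, through TN1 monocytes. Its fitted log2 fold of -6.69 was -3.93 as a pooled ratio. Gzma and Gzmb, which are natural killer markers, were not called. No gene of these lists was called between the tumours.

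Some members overlap other genes, and the libraries carry no strand. Ctsa overlaps Pltp (up to 498 TPM) and Neurl2, Ctsb overlaps Fdft1, Ctsw overlaps Fibp (up to 48.6 TPM) and Ctsz overlaps Nelfcd on the opposite strand, and reads from shared stretches can be assigned to either gene. On the same strand, Ctsd overlaps the protein-coding Gm49369 (up to 9.18 TPM) and Ctss the pseudogene Hmgb1-ps5 (up to 4.65 TPM). The authors' deposited tables give adjusted p = 1 for all 10 cathepsins between the tumours in both cell types.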

How the data were processed

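The 10 libraries were all analysed. Per the labels, lung cells were sorted, RNA was prepared with RNeasy Micro, cDNA with Smart-seq2, and sequenced on an Illumina HiSeq. Per the submitters' processing notes, kallisto 0.42.3 and GRCm38 were used. The authors deposited estimated counts and TPM (length-corrected transcript abundance) for 85276 transcripts in each library; 96.0% were matched to genes of the GENCODE M21 annotation, and 1.94% to 3.59% of counts were on unmatched ones. The authors deposited comparison tables with log2 group means and differences, p-values and a signed fold, a score not used here. The group means equal means of log2(TPM + 1) for the 10 cathepsins within 0.00886.

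Transcript values were summed per gene, and counts were rounded. Genes were filtered (filterByExpr, minimum count 10), scaled by TMM and tested with edgeR 4.0.16 (R 4.3.3, quasi-likelihood, 4 group means, 6 residual degrees of freedom), with Benjamini-Hochberg adjustment over 13384 genes. Cell types were compared as the mean of the 2 tumours' differences. The common biological coefficient of variation was 0.887. The filter keeps genes from either cell type, and totals set the counting error only. Scripts were tested on simulated data. Alternatives used DESeq2 1.42.0, limma 3.58.1, other scalings and filters, a replicate block and left-out libraries. Named genes of each list are up to 4 called ones of smallest p and up to 2 not called of highest TPM. The members and lists were chosen with earlier results of these data known.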

Additional observations from a re-analysis of the deposited data

Results flagged for a closer look

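Within each cell type, the 5 libraries of both tumours were checked for a single library far from the rest, as the gap to its nearest neighbour over the whole range. About 1 in 20 groups is picked out by chance. TN2 monocytes tag_706 was the lowest monocyte library for Ctsa (gap over range 0.811; 608 CPM against 1001 to 1093 CPM in the others), Ctss (0.730; 1508 CPM against 2818 to 3303 CPM) and Ctsz (0.722; 647 CPM against 1203 to 1416 CPM). TN2 neutrophils tag_1341 was the highest neutrophil library for Ctsc (0.856; 516 CPM against 75.3 to 139 CPM). TN2 neutrophils tag_367 was the highest for Ctsw (0.770; 2.91 CPM against 0 to 0.671 CPM). The marker sums of these libraries stand beside the results above, and their part in these values was not tested.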

How the results depend on the processing

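Ctse, Ctsh, Ctss and Ctsz kept their calls between the cell types in all 22 alternatives. Over all member folds and alternatives, 797 kept direction and side of the threshold, 65 reversed, 11 lost and 7 gained a call; the cause was not tested. Between the cell types, 4532 genes were called higher on log2(TPM + 1), 4287 on log2(TPM + 0.1) and 3910 with library totals, where 886 were lower, as was 1 cathepsin. With DESeq2 the tumour comparison called 17 higher and 5 lower in monocytes, 78 and 9 in neutrophils, and 4 and 17 for the difference of effects. In neutrophils, log2(TPM + 0.1) called 2 higher and 1 lower, log2(TPM + 1) 1 lower, library totals 1 higher and no filter 2 higher; for the difference, no filter called 1 lower.

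Leaving out libraries gave 1342 to 2423 genes higher between the cell types (1342 without TN2 monocytes tag_367, 1350 without both tag_482 libraries), with 4 to 6 cathepsins, 0 to 127 higher and 0 to 2 lower in monocytes between tumours (127 and 2 without TN1 tag_191), 0 to 484 and 0 to 24 in neutrophils (484 and 24 without TN1 tag_191), and 0 to 65 and 0 to 369 for the difference (65 without TN1 monocytes tag_191, 369 without TN1 neutrophils tag_191). With 1 TN1 library left, it is assumed to vary like the others.

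Uncalled tumour folds that changed sign were, on log2(TPM + 1), log2(TPM + 0.1) and with library totals in that order, Ctsa difference (0.21, 0.21, 0.11), Ctsb monocytes (0.19, 0.19, 0.023) and Ctss monocytes (0.14, 0.14, 0.027). On the first 2 of these scales, the Ctsh difference was 0.034 and 0.036 and the Ctsw difference 0.76 and 0.46. Ctsl neutrophils was -0.035 with library totals, and Ctsd neutrophils 0.000701 without a filter. Leaving out libraries, monocyte folds ran from -0.83 to 0.041 for Ctsc, -0.36 to 0.32 for Ctsd, -0.40 to 0.15 for Ctss and -0.081 to 10.06 for Ctsw. Neutrophil folds ran from -0.30 to 0.025 for Ctsa, -0.54 to 1.36 for Ctsc, -0.34 to 0.15 for Ctsd, -0.61 to 0.12 for Ctse, -0.73 to 0.37 for Ctsh, -0.28 to 0.52 for Ctsl and -0.17 to 0.71 for Ctss. Differences of effects ran from -0.27 to 0.18 for Ctsa, -0.14 to 0.36 for Ctsb, -1.67 to 0.58 for Ctsc, -0.37 to 0.52 for Ctsd, -0.89 to 0.48 for Ctsh, -0.065 to 1.16 for Ctsl, -0.84 to 0.32 for Ctss and -6.75 to 3.50 for Ctsw. The Ctsw differences rest on TN1 neutrophils at 0 counts, so their sizes and signs are not read as results.

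Both cell types carry the same tags, but the labels do not say what a tag shares. Deviations from group means correlated across cell types at -0.06 (tag_367), 0.38 (tag_706), 0.34 (tag_1341) and 0.09 (tag_191 and tag_482). With 2 TN1 libraries per cell type the deviations mirror each other, so both TN1 tags share the same value by construction. Monocyte tag_706, tag_1341, tag_191 and tag_482 matched their own neutrophil tag best, and tag_367 matched tag_1341 best. As the labels do not settle it, the tags were not taken as pairs. With tag as a replicate block, 1793 genes were higher and 1542 lower between the cell types, with 6 and 2 cathepsins, and 0 in the other comparisons. Groups of 2 and 3 libraries limit the tumour comparisons, and low counts limit Ctse and Ctsw.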
